A study of Homo sapiens with 12 samples.

Results

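CHAC1 and 9 other genes of the integrated stress response, namely ATF4, DDIT3, TRIB3, ASNS, SESN2, DDIT4, PSAT1, ATF3 and SLC7A11, were followed in 12 samples of PC-3 cells, an androgen-independent human prostate adenocarcinoma cell line. The genes were selected on the readout: CHAC1 was chosen by its high value in PIM1 compared to control cells in these data, and the others because they are ATF4 or genes known as ATF4 targets. Their members are the array probes, controls left out, whose RefSeq transcript belongs to one of the 10 genes. This gave 14 probes on 23 spots for 10 of the 25473 genes tested. All 10 genes passed the filter on dim probes, and each of their spots was well above background in all 12 channels, apart from the SESN2 spot in PIM1 replicate 1.

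Each of the 6 groups had 2 samples. The control cells carried an empty pcDNA3.1 vector and the PIM1 cells a pcDNA3.1 vector for PIM1, an oncogenic serine/threonine kinase. WT and MM cells were control cells with transient wild-type NFATC1, a transcription factor of the NFAT family, or with transient multi mutant NFATC1, whose PIM1 target sites had been replaced by alanine. PIM1 + WT and PIM1 + MM cells were PIM1 cells with the same transient constructs, and the labels of the control and PIM1 groups name no transient transfection. All cells also carried a Td-Tomato plasmid and were kept under G418. Each stable line was grown from a pool of transfected cells, and 1 PIM1 line was set against 1 mock line, so that PIM1 and other differences between these lines cannot be told apart. The labels do not say whether replicates came from separate cultures, and p-values then measure the spread between these samples, which may be technical. In bulk RNA, fewer cells of a type and less RNA per cell cannot be told apart.

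The samples were hybridised in pairs to 6 two-colour arrays on 2 slides, replicate 1 on one slide and replicate 2 on the other. Cy3 always marked the control, WT and PIM1 + WT samples, and the Cy5 dye was used for those of the PIM1, MM and PIM1 + MM groups. The share of spots well above background ran from 56.9% to 69.0% per channel, and precision is limited by how few arrays there are. Levels below are log2 intensities after quantile normalisation between channels. They are compared between samples for 1 gene and not between genes, apart from the summed intensities of markers. The PIM1 probe did not separate the groups, with 9.90 to 10.36 in the 6 samples with stable PIM1 and 9.85 to 10.22 in the other 6, and it is not known here if this probe lies in the transfected sequence. For NFATC1, probe A_24_P258846 had mean levels of 6.87, 7.77 and 11.29 for control, WT and MM cells, and of 6.38, 7.97 and 11.95 for PIM1, PIM1 + WT and PIM1 + MM cells. The other NFATC1 probe, A_23_P300150, had 8.29, 8.28 and 8.39 in control, WT and MM cells, and 7.44, 7.19 and 7.34 in their PIM1 counterparts. Overexpression of PIM1 and/or NFATC1 in the microarray samples was reported by the authors from real-time qPCR, normalised to TBP, which is not part of the array data. The epithelial markers KRT8, KRT18, KRT19 and EPCAM were well above background in all 12 channels and CDH1 in 9, while KLK3, a marker of androgen-responsive luminal cells, was so in 0.

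In the integrated stress response, kinases that sense amino acid shortage, unfolded proteins, haem shortage or viral RNA phosphorylate the translation factor eIF2. Most translation then slows down, whereas the mRNA of the transcription factor ATF4 is translated more, so that an array, which reads mRNA, does not measure ATF4 protein. ATF4 binds DNA together with C/EBP partners at composite elements and turns on genes for amino acid uptake and synthesis, for restraint of the mTOR pathway and, in prolonged stress, for cell death. CHAC1 is such a target and encodes a cytosolic enzyme that breaks down glutathione.

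The composite element was searched in promoter windows of RefSeq (GRCh38.p14), which span 250 bases before to 50 bases after a transcript's start. The table held windows for 9 of the 10 members, all but SLC7A11. The letters TGATGNAA, on either strand, were found in the windows of 3 members, CHAC1, ASNS and ATF3, and in 3.62% of all 35116 windows. The matches began 209, 68 and 191 bases before the start of CHAC1, ASNS and ATF3. They are shown in capitals, on the gene's strand, because ATF4 is known to act on its targets through such elements. CHAC1 (chr15:40953236-40953295, plus strand) holds it in the reverse orientation, ASNS (chr7:97872443-97872502, minus strand) and ATF3 (chr1:212565190-212565249, plus strand) in the forward one.
CHAC1: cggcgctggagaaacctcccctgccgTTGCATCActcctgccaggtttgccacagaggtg
ASNS: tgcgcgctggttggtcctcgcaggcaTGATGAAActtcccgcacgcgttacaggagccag
ATF3: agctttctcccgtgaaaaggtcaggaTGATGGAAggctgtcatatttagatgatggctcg
The full cAMP response element TGACGTCA was in 0 of the members' windows and in 1.85% of all windows. The antioxidant element TGACNNNGC was in the windows of TRIB3 alone among the members and in 13.3% of all windows. A match describes the letters and is not a binding site.

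CHAC1 differed more between cells with and without stable PIM1 than any other member. Its log2 level was 10.24 and 10.21 in the 2 control samples, 9.93 and 9.95 in WT cells and 9.85 and 9.82 in MM cells. In the cells with stable PIM1 it was 12.33 and 12.37 without NFATC1, 12.93 and 12.85 with WT and 12.35 and 12.36 with MM NFATC1. The 6 samples with stable PIM1 thus lay between 12.33 and 12.93, all above the other 6 samples, which lay between 9.82 and 10.24. PIM1 and control cells differed by 2.12 on the log2 scale, a fold of 4.35, and by 2.08 and 2.16 on the 2 slides, and with each channel centred on its median in place of quantile normalisation by 1.51. This is the contrast that chose CHAC1, and it also sets Cy5 against Cy3, so that it is given with no test for any member. In that contrast 3 genes of 25473 had a higher value than CHAC1.

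**Figure D1:**
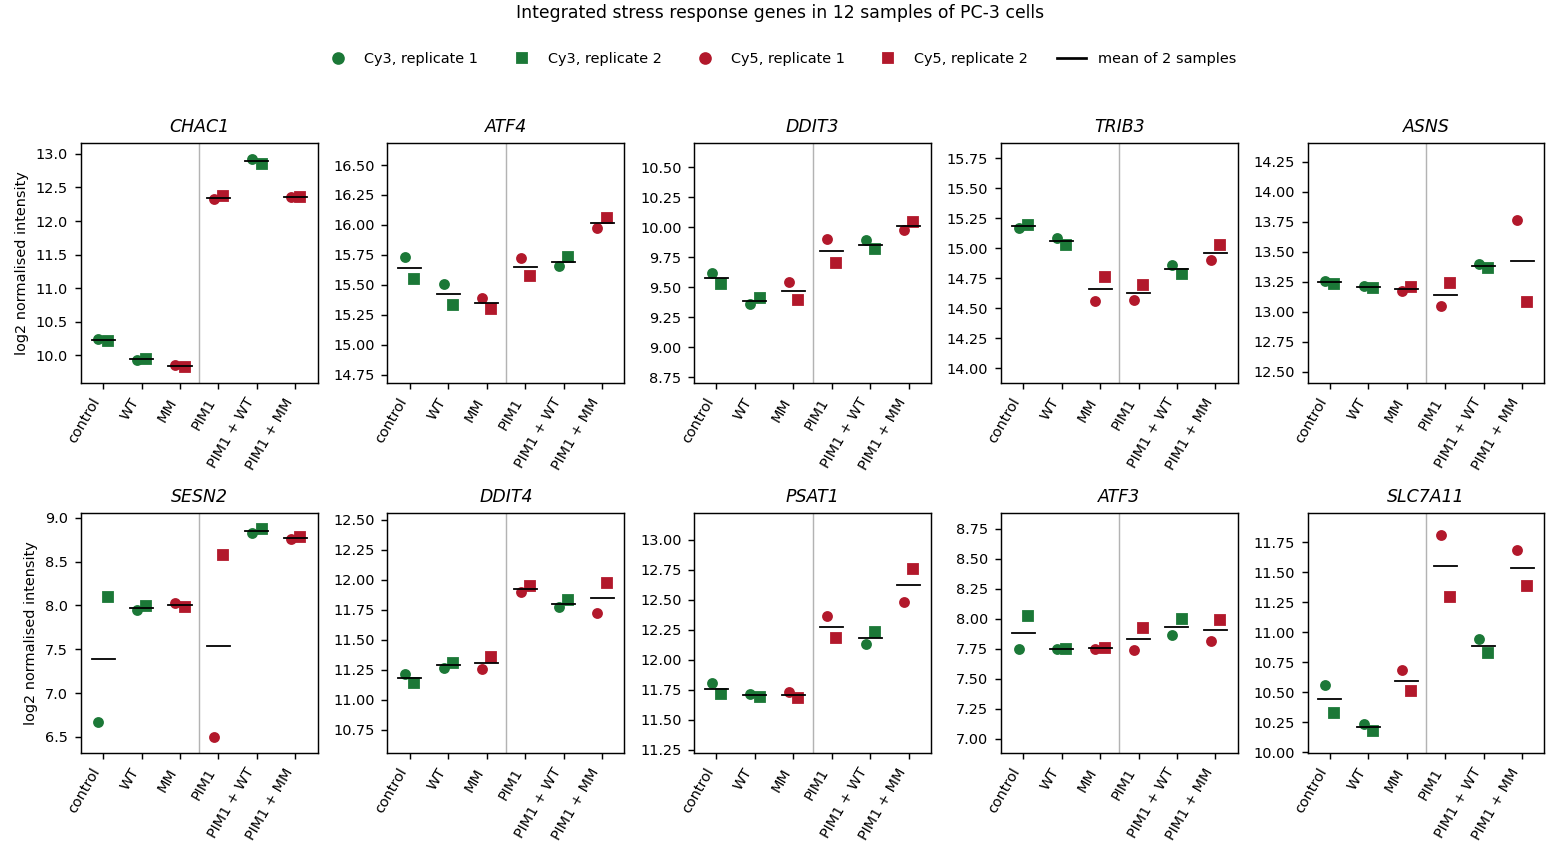
Quantile-normalised log2 intensity of the 10 genes (1 panel each, with its own vertical axis) in the 2 samples of each group, green for Cy3 and red for Cy5, circles for replicate 1 and squares for replicate 2, with a black line at the group mean; the grey line separates groups without and with stable PIM1. CHAC1, DDIT3, DDIT4, PSAT1 and SLC7A11 do not overlap between the 2 sides. The sides include the samples that chose CHAC1, and the share of all genes that separate this way was not counted. Both SESN2 samples of the first array, at 6.67 and 6.49, lie below all others.

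In the 8 samples with NFATC1, which did not choose the members, stable PIM1 could be compared within a dye. The groups compared lay on different arrays, so that array and stable PIM1 cannot be told apart there. Median raw intensities were 102 and 86 in PIM1 + WT against 139 and 130.5 in WT samples. They were 292 and 192 in PIM1 + MM against 318 and 204 in MM samples. A gene was called where limma's moderated test had a Benjamini-Hochberg adjusted p below 0.05 over all genes and the log2 difference was at least 0.1. CHAC1 was higher in PIM1 + WT than in WT cells by 2.95 (standard error 0.0538, adjusted p = 1.19e-08), a fold of 7.72, which was the second highest of all genes tested. Between PIM1 + MM and MM cells CHAC1 differed by 2.52 (standard error 0.0538, adjusted p = 2.44e-08), a fold of 5.74 and the fourth highest. The mean of both differences was 2.74, with 2.75 on slide 1 and 2.72 on slide 2 (adjusted p = 6.78e-10). CHAC1 kept its call in both comparisons under every alternative setting listed in the closing section, with differences from 2.75 to 3.18 with WT and from 2.37 to 2.77 with MM NFATC1.

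Of the 10 members, 5 were called higher and 0 lower in PIM1 + WT compared to WT cells, namely CHAC1, DDIT3, DDIT4, PSAT1 and SLC7A11. Over all genes, 13.4% were called higher and 14.1% lower there. In PIM1 + MM compared to MM cells, 7 members were called higher and 0 lower, the same 5 genes and ATF4 and TRIB3, against 10.0% of all genes called higher and 9.40% called lower. In the mean of both comparisons 6 members were called higher and 0 lower, with 16.7% and 17.4% of all genes. The median difference of the 10 members was 0.48 with WT and 0.61 with MM NFATC1, whereas that of all genes was -0.0039 and 0.0029. CHAC1 is among these 10 and was picked for its PIM1 value, and the other members were listed with earlier results of these data known. With median centring, CHAC1 was the only member called in both comparisons. Markers of the cells themselves also moved with stable PIM1. Of the 5 epithelial markers, 1 was called higher and 2 lower with WT, and 2 higher and 2 lower with MM NFATC1. EPCAM, an epithelial adhesion molecule, was lower by -0.76 (adjusted p = 2.04e-04) and -0.40, and CDH1, the E-cadherin of epithelial junctions, by -0.42 and -0.33, whereas the keratin KRT8 was higher by 0.40 and 0.25. The summed linear intensity of the 5 markers was between 75480 and 93390 in the samples with stable PIM1 and between 69280 and 79840 in those without. The brightest markers, KRT19 and KRT18, make up most of this sum, which therefore does not show the lower EPCAM and CDH1. TMPRSS2, a luminal protease, was lower by -0.49 and -0.47. Their part in the result was not tested.

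**Figure D2:**
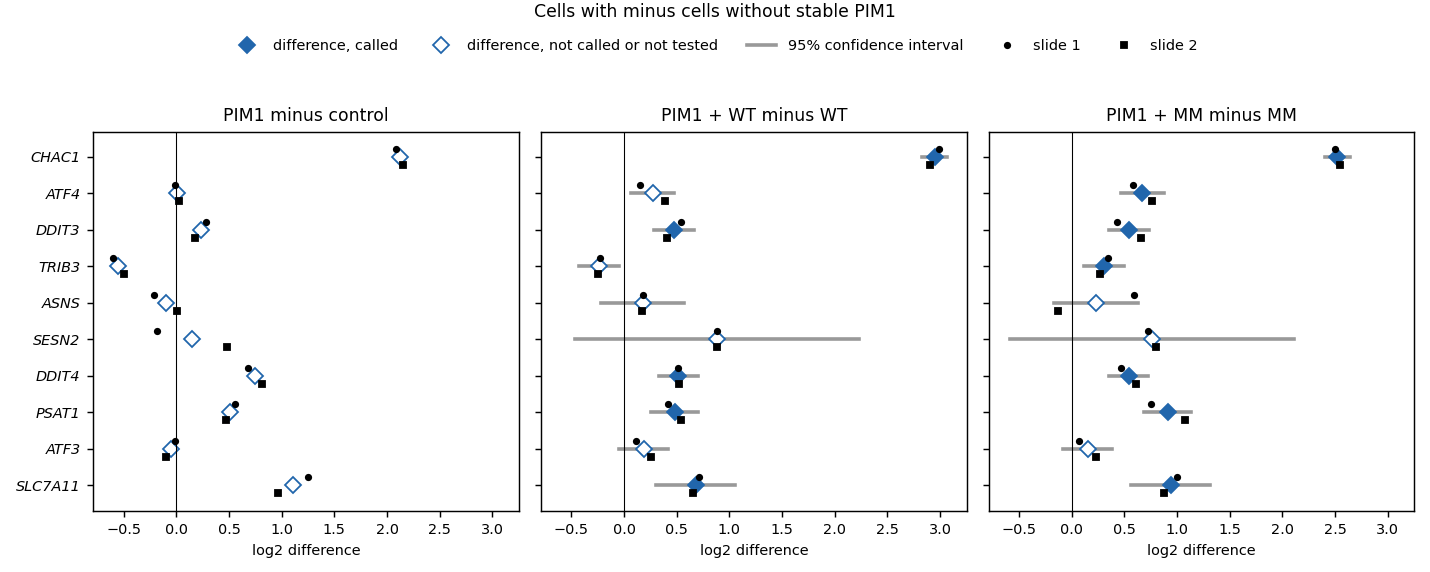
Log2 difference of each gene between cells with and without stable PIM1 (horizontal axis), without NFATC1 (left, no test), with WT (middle) and with MM NFATC1 (right); diamonds are the differences of group means, filled where called, grey bars their 95% confidence intervals, and black circles and squares the values on slides 1 and 2. CHAC1 stands at 2.12, 2.95 and 2.52, and no other member exceeds 1.11.

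ATF4 encodes the transcription factor on which the response converges. Its level was 15.73 and 15.55 in control cells, 15.72 and 15.58 in PIM1 cells, 15.51 and 15.34 in WT, 15.39 and 15.30 in MM, 15.66 and 15.73 in PIM1 + WT, and 15.97 and 16.06 in PIM1 + MM cells. The PIM1 + MM samples were the highest of the 12, and control and PIM1 samples overlapped, with a difference of 0.01. With MM NFATC1, ATF4 was higher in the cells with stable PIM1 by 0.67 (standard error 0.0905, adjusted p = 0.00104). With WT NFATC1 the difference was 0.27 (95% confidence interval 0.07 to 0.48, adjusted p = 0.0534) and it was not called. That p fell below the threshold in 8 of the 14 settings tried beside leaving out single samples, among them leaving out the first array (adjusted p = 0.0313), and median centring gave a difference of -0.05.

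DDIT3 encodes CHOP, a bZIP factor of prolonged stress that ATF4 induces. It lay between 9.70 and 10.05 in the 6 samples with stable PIM1 and between 9.36 and 9.62 in the 6 without, and these ranges did not overlap. For this and the other members, the share of all genes that separate in this way was not counted. The difference was 0.23 without NFATC1. With WT NFATC1, DDIT3 was higher by 0.47 (standard error 0.0848, adjusted p = 0.00281), and with MM NFATC1 by 0.54 (adjusted p = 0.00231).

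ATF3, another bZIP factor induced by ATF4, was read by 4 probes and lay between 7.74 and 8.02 in all 12 samples. It differed by -0.05 without NFATC1, by 0.19 with WT (95% confidence interval -0.05 to 0.42, adjusted p = 0.25) and by 0.15 with MM NFATC1 (-0.09 to 0.39, adjusted p = 0.376). Neither difference was called. Its brightest probe, A_23_P34915, lies in the 33 topmost of 532 array rows, which had a low Cy5 signal in PIM1 + MM replicate 2. This probe fell by 2.13 on slide 2 and rose by 0.28 on slide 1 between MM and PIM1 + MM cells.

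TRIB3 encodes a pseudokinase that ATF4 and CHOP induce and that restrains them in turn. The control samples were at 15.17 and 15.20, those of PIM1 cells at 14.57 and 14.70, with 15.09 and 15.03 in WT, 14.56 and 14.76 in MM, 14.86 and 14.78 in PIM1 + WT, and 14.90 and 15.03 in PIM1 + MM cells. Both PIM1 samples were below both control samples, and the difference was -0.55 between the dyes. WT cells, labelled with Cy3, were above MM cells, labelled with Cy5, by 0.40 (adjusted p = 0.0774). The remaining Cy3 against Cy5 pair went the other way, with PIM1 + WT minus PIM1 + MM at -0.14 (adjusted p = 0.328). Within a dye, TRIB3 differed by -0.24 with WT NFATC1 (adjusted p = 0.0686, not called) and was higher by 0.30 with MM NFATC1 (adjusted p = 0.0338). The latter call was lost without MM replicate 1, with a difference of 0.20 (adjusted p = 0.199), without PIM1 + MM replicate 2, with 0.24 (adjusted p = 0.168), with the array as a random block (adjusted p = 0.0555), with median centring, and in a fit of the compared groups only (adjusted p = 0.121). That fit called TRIB3 lower with WT NFATC1 (adjusted p = 0.0215).

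Among the members that serve amino acid supply, PSAT1, an enzyme of serine synthesis, was between 12.13 and 12.76 in the 6 samples with stable PIM1 and between 11.68 and 11.80 in the 6 without. The ranges did not overlap, and the difference was 0.51 without NFATC1. PSAT1 was higher by 0.48 with WT (standard error 0.0989, adjusted p = 0.00595) and by 0.91 with MM NFATC1 (adjusted p = 3.10e-04).

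SLC7A11 encodes the light chain of the cystine/glutamate exchanger, which feeds glutathione synthesis. The 2 control samples had 10.56 and 10.32, the PIM1 samples 11.81 and 11.29, and further levels were 10.24 and 10.18 in WT, 10.69 and 10.51 in MM, 10.94 and 10.83 in PIM1 + WT, and 11.68 and 11.39 in PIM1 + MM cells. All samples with stable PIM1 were above all samples without it. PIM1 and control cells differed by 1.11, with 1.25 and 0.97 on the 2 slides. SLC7A11 was higher by 0.68 with WT (standard error 0.166, adjusted p = 0.0138) and by 0.94 with MM NFATC1 (adjusted p = 0.00426). The call with WT NFATC1 was lost without WT replicate 1 (adjusted p = 0.0587), without WT replicate 2 (0.0766) or without PIM1 + WT replicate 1 (0.0869).

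ASNS, asparagine synthetase, was not called in either comparison with all groups in the fit. It was 13.40 and 13.37 in PIM1 + WT against 13.22 and 13.20 in WT cells, a difference of 0.18 (95% confidence interval -0.22 to 0.57, adjusted p = 0.553), which a fit of the compared groups only called (adjusted p = 0.0307). In PIM1 + MM cells the replicates were 13.77 and 13.08, against 13.18 and 13.21 in MM cells, a difference of 0.23 (adjusted p = 0.424). The ASNS spot lies in row 30 of the array, within the rows of low Cy5 signal in PIM1 + MM replicate 2. Without those rows of that channel the difference was 0.57 and ASNS was called (adjusted p = 0.00295), and without that sample it was 0.57 as well (adjusted p = 0.00445). The scanner's processed signal gave 0.63, also called (adjusted p = 6.15e-04). Without PIM1 + MM replicate 1 it was -0.11.

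SESN2 and DDIT4 encode stress-induced inhibitors of mTORC1, the kinase complex that couples amino acids to growth. DDIT4 was between 11.72 and 11.97 in the 6 samples with stable PIM1 and between 11.14 and 11.35 in the 6 without, which did not overlap. The difference was 0.75 without NFATC1. DDIT4 was higher by 0.52 with WT (standard error 0.0832, adjusted p = 0.00158) and by 0.54 with MM NFATC1 (adjusted p = 0.00213).

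SESN2 was 6.67 and 8.10 in control samples, 6.49 and 8.58 in PIM1 samples, 7.94 and 7.99 in WT, 8.03 and 7.98 in MM, 8.83 and 8.88 in PIM1 + WT, and 8.76 and 8.78 in PIM1 + MM cells. Both samples of the first array, control replicate 1 and PIM1 replicate 1, were below all others, and in the latter the raw intensity of 145.5 was not well above a local background of 120. Among the 8 samples with NFATC1 the 4 with stable PIM1 were all above the 4 without. SESN2 differed by 0.88 with WT (standard error 0.596, adjusted p = 0.346) and by 0.76 with MM NFATC1 (adjusted p = 0.438), and was not called. With the first array left out, the same differences had a standard error of 0.053 and SESN2 was called in both (adjusted p = 6e-05 with WT and 1.76e-04 with MM NFATC1). It was called as well in a fit of the compared groups only, with adjusted p of 5.86e-04 and 0.00613.

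The next comparisons asked if these genes differed between cells with WT and with MM NFATC1. The NFATC1 probe A_24_P258846 read 7.77 in WT against 11.29 in MM cells, and 7.97 against 11.95 with stable PIM1. The other NFATC1 probe read 8.28 and 8.39, and 7.19 and 7.34. In each comparison of WT with MM, the interaction included, the form of NFATC1 and its level by the first probe cannot be told apart. Without stable PIM1, in WT minus MM cells, 0 of the 10 members were called by limma, beside 0.793% of all genes in either direction. An unadjusted p below 0.05 was found for 2 members and for 3037 of the 25473 genes. There CHAC1 differed by 0.11 (95% confidence interval -0.02 to 0.23). In WT minus control cells 0 of the 9 members other than CHAC1 were called, beside 0.204% of all genes. There 2 of these 9 and 2737 of the 25473 genes had an unadjusted p below 0.05. For CHAC1 this comparison reuses the control samples of the contrast that chose it, and its difference of -0.29 is given with no test.

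With stable PIM1, in PIM1 + WT minus PIM1 + MM cells, 1 member was called higher and 3 lower, with 8.55% of all genes called higher and 7.57% called lower. CHAC1 was higher by 0.53 (standard error 0.0538, adjusted p = 3.02e-04). ATF4 was lower, by -0.32 (adjusted p = 0.0407), as were PSAT1 by -0.44 (adjusted p = 0.017) and SLC7A11 by -0.65 (adjusted p = 0.0284). This comparison sets Cy3 against Cy5, and the dye and the form of NFATC1 cannot be told apart in it. The calls of ATF4, PSAT1 and SLC7A11 were each lost without PIM1 + WT replicate 1, with adjusted p of 0.202, 0.121 and 0.0978, and also without PIM1 + WT replicate 2 (0.115, 0.0553 and 0.147). ATF4 lost it too without PIM1 + MM replicate 1 (0.0645) or 2 (0.186), SLC7A11 without PIM1 + MM replicate 1 (0.129) and PSAT1 without PIM1 + MM replicate 2 (0.0939). A fit of the compared groups only called neither ATF4 (0.0519) nor PSAT1 (0.0759), loess called neither ATF4 (0.107) nor SLC7A11 (0.0782), and the processed signal did not call ATF4 (0.063).

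The 2 probes of CHAC1 differed in this comparison. Probe A_33_P3376965 was at 11.20 and 11.10 in PIM1 + WT cells, at 10.09 and 10.15 in PIM1 + MM cells and at 10.57 and 10.47 in PIM1 cells. It differed by 1.03 between PIM1 + WT and PIM1 + MM cells, with 1.11 and 0.95 on the 2 slides. Probe A_33_P3376971, the brighter one, was at 14.65 and 14.60, at 14.61 and 14.58, and at 14.08 and 14.26 in the same groups, and differed by 0.03. Both probes were higher with stable PIM1 in every comparison. The first gave 2.19 without NFATC1, 3.14 with WT and 2.27 with MM NFATC1. The second gave 2.05, 2.76 and 2.77.

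**Figure D3:**
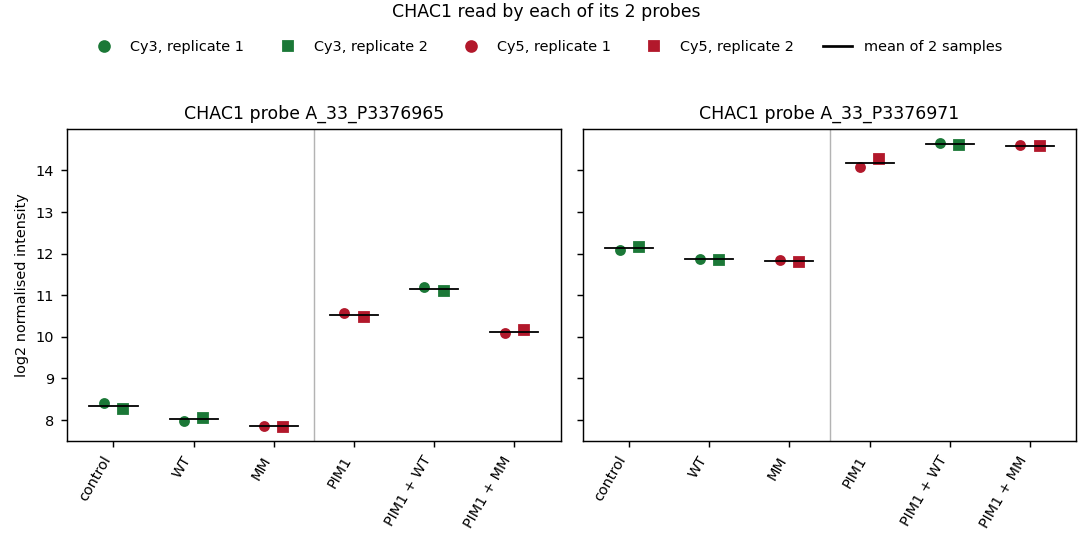
Quantile-normalised log2 intensity of CHAC1 by probe, A_33_P3376965 on the left and A_33_P3376971 on the right, for the 2 samples of each group, with colours, shapes and lines as in the plot of all members. PIM1 + WT lies above PIM1 + MM cells by 1.03 for the left and 0.03 for the right probe, and both probes are higher in all 6 samples with stable PIM1.

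In PIM1 + MM minus PIM1 cells, both labelled with Cy5, 2 of the 9 members other than CHAC1 were called higher, ATF4 by 0.37 (adjusted p = 0.0316) and TRIB3 by 0.33 (adjusted p = 0.0347), and 0 lower. Over all genes 5.20% were called higher and 7.16% lower. The ATF4 call was lost without PIM1 replicate 2 (adjusted p = 0.109), PIM1 + MM replicate 1 (0.0537) or PIM1 + MM replicate 2 (0.141), and that of TRIB3 without PIM1 replicate 1 (0.134) or PIM1 + MM replicate 2 (0.166). Loess (0.088 and 0.0654) and a fit of the compared groups only (0.217 and 0.246) called neither gene, the processed signal did not call ATF4 (0.339), and TRIB3 was not called with the array as a random block (0.0537) or without the first array (0.141). The PIM1 samples of this comparison are those whose high value chose CHAC1, and its difference is given with no test. It was 0.01, which is the mean of -0.40 and 0.42 from its 2 probes. 

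The interaction, that is the stable PIM1 difference with WT minus that with MM NFATC1, from which a fixed dye difference drops out, was called for 1 member, CHAC1, and for 2.21% of all genes in the fit without blocks. For CHAC1 it was 0.43 (standard error 0.0761, adjusted p = 0.0265). For TRIB3 it was -0.54 (adjusted p = 0.0553), for PSAT1 -0.43 (adjusted p = 0.158) and for ATF4 -0.40 (adjusted p = 0.155), with 95% confidence intervals of -0.81 to -0.27, -0.75 to -0.12 and -0.69 to -0.11. The interaction is equally PIM1 + WT minus PIM1 + MM less WT minus MM, and these differences lie within arrays. With the array as a random block all 4 genes were called, with adjusted p of 0.00472 for CHAC1, 0.0137 for TRIB3, 0.0293 for PSAT1 and 0.0248 for ATF4, beside 9.73% of all genes. With the array as a fixed block the same 4 were called (0.0287, 0.0438, 0.0384 and 0.0312), beside 5.68% of all genes. The stable PIM1 difference of CHAC1 was thus larger under WT than under MM NFATC1, but by 1 of its 2 probes only. Probe A_33_P3376965 gave 0.86 and probe A_33_P3376971 gave -0.01. For TRIB3, PSAT1 and ATF4 the difference was smaller under WT or in the other direction, which the fit without blocks did not call.

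The wider pathway was described with lists of other genes, in the comparisons of stable PIM1 with WT and with MM NFATC1. Genes of these lists with differences below 1 in size were picked for naming after their values were seen. The counts stand beside 13.4% of all genes called higher and 14.1% lower with WT, and 10.0% and 9.40% with MM NFATC1. Of 9 amino acid transporters, 7 were called higher and 0 lower in both comparisons, 77.8% of the list, and these were the same genes, SLC3A2, SLC7A5, SLC7A1, SLC1A4, SLC1A5, SLC38A2 and SLC6A9. Their list had a median difference of 0.62 with WT and 0.41 with MM NFATC1. SLC1A5, a glutamine transporter, was the highest with WT NFATC1, at 1.05 (adjusted p = 2.27e-05), and had 0.46 with MM NFATC1. SLC3A2, the heavy chain that SLC7A11 pairs with, differed by 0.81 and 0.37.

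Of 13 enzymes of amino acid and one-carbon synthesis, 5 (38.5%) were called higher with WT and 6 (46.2%) with MM NFATC1, and 0 lower in both. The 5 called in both were PHGDH, PSPH, CTH, CBS and PCK2. PHGDH, which starts serine synthesis, differed by 1.08 (adjusted p = 1.11e-05) and 0.82, and PSPH, which ends it, by 0.23 and 0.53. CTH and CBS, which make cysteine from homocysteine, differed by 0.61 and 0.54 with WT and by 0.94 and 0.80 with MM NFATC1.

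The other lists moved in both directions. Over these 7 lists and the markers of other cell types, 10.0% to 42.9% of a list were called higher and 5.26% to 28.6% lower with WT, and 10.0% to 26.3% higher and 5.26% to 42.9% lower with MM NFATC1. The lowest share called higher, 10.0% in both comparisons, was that of the glutathione genes. Each other list was above the share of all genes, at 25.0% or more with WT and 12.5% or more with MM NFATC1. Shares called lower lay on both sides of those of all genes. Of 12 further stress targets of ATF4 tested, 3 were called higher and 1 lower with WT, and 2 higher and 1 lower with MM NFATC1. GDF15, a stress-induced cytokine, was higher by 1.39 (adjusted p = 1.28e-05) and 1.75 (adjusted p = 5.37e-06) in the 2 comparisons, whereas STC2 was lower by -0.51 and -0.36. Among 7 genes of eIF2 alpha, its kinases and its phosphatase subunits, 2 were called higher and 2 lower with WT, and 1 higher and 1 lower with MM NFATC1. EIF2AK1, the haem-regulated kinase, was called higher in both, by 0.51 and 0.37. PPP1R15A, which directs a phosphatase to eIF2 and is itself an ATF4 target, was higher by 0.80 with WT NFATC1 and differed by 0.15 (adjusted p = 0.239) with MM NFATC1. The genes called lower were EIF2S1, which encodes eIF2 alpha, by -0.36 and PPP1R15B by -0.30 with WT NFATC1. With MM NFATC1 it was EIF2AK3, another of the kinases, by -0.34. Of 7 partners and regulators of ATF4, 2 and 1 were called higher and 2 and 3 lower. JUN was lower by -1.06 (adjusted p = 1.57e-05) and -0.66, JDP2 by -0.996 and -0.83, and NUPR1 was higher by 0.87 and 0.57, while CEBPB and CEBPG were not called.

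**Figure D4:**
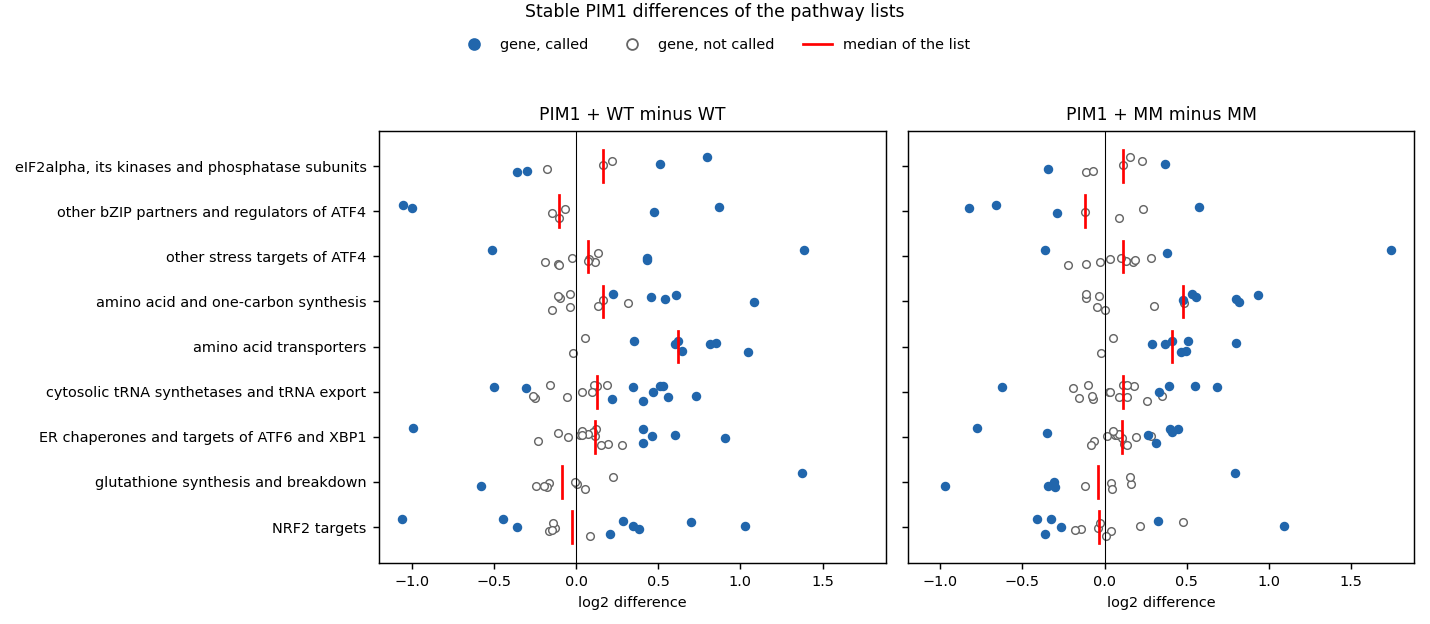
Log2 difference between cells with and without stable PIM1 (horizontal axis) for the genes of 9 pathway lists, with WT NFATC1 on the left and MM NFATC1 on the right; each point is a gene, filled where called, and a red line marks the median of its list. The amino acid transporters have 7 of 9 genes called higher on both sides, with medians of 0.62 and 0.41.

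Cytosolic tRNA synthetases and the tRNA exporter XPOT, 19 genes in all, included 8 called higher and 2 lower with WT, and 4 higher and 1 lower with MM NFATC1. Of 19 ER chaperones and targets of ATF6 and XBP1, the other arms of the unfolded protein response, 5 were called higher and 1 lower with WT, and 5 higher and 2 lower with MM NFATC1. HSPA5, the ER chaperone BiP, differed by 0.12 (adjusted p = 0.204) and was higher by 0.40 with MM NFATC1. The medians of both lists lay between 0.10 and 0.13 in both comparisons.

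Around glutathione, which CHAC1 degrades and SLC7A11 feeds, 1 of 10 genes was called higher and 1 lower with WT, and 1 higher and 4 lower with MM NFATC1. ANPEP, a cell surface aminopeptidase, was higher by 1.37 (adjusted p = 3.93e-06) and 0.80, and GCLC, the catalytic subunit that starts glutathione synthesis, was lower by -0.58 and -0.34. CHAC2, the constitutive relative of CHAC1, differed by -0.24 (adjusted p = 0.629) and was lower by -0.97 with MM NFATC1. SLC7A11 is also known as a target of NRF2, and of 14 NRF2 targets 6 were called higher and 3 lower with WT, and 2 higher and 4 lower with MM NFATC1. AKR1C1 was higher by 1.03 and 1.09, and HMOX1 was lower by -1.06 and -0.32, while NQO1 was lower by -0.36 and -0.26. The median of the NRF2 list was -0.02 and -0.03.

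The 5 genes outside the members whose levels over the 12 samples, each centred on its mean, came closest to CHAC1 were EHD2, TFF2, UBE2QL1, TFF1 and PDE2A. The root mean square difference from CHAC1 was 0.213 for EHD2, an endocytic membrane ATPase, and 0.299 for PDE2A, a cyclic nucleotide phosphodiesterase. Differences of EHD2 in the contrasts of stable PIM1 were 2.12 without NFATC1, 2.41 with WT and 2.29 with MM NFATC1, and those of TFF1, a secreted trefoil factor, were 2.70, 2.85 and 3.06. Among the members SLC7A11 came closest to CHAC1, at rank 234 of 18731 genes, followed by PSAT1 at 435 and DDIT4 at 454. ATF4 ranked 1813 and TRIB3 14202. This measure shares the stable PIM1 difference that chose CHAC1 and is a description over 12 samples.

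**Figure D5:**
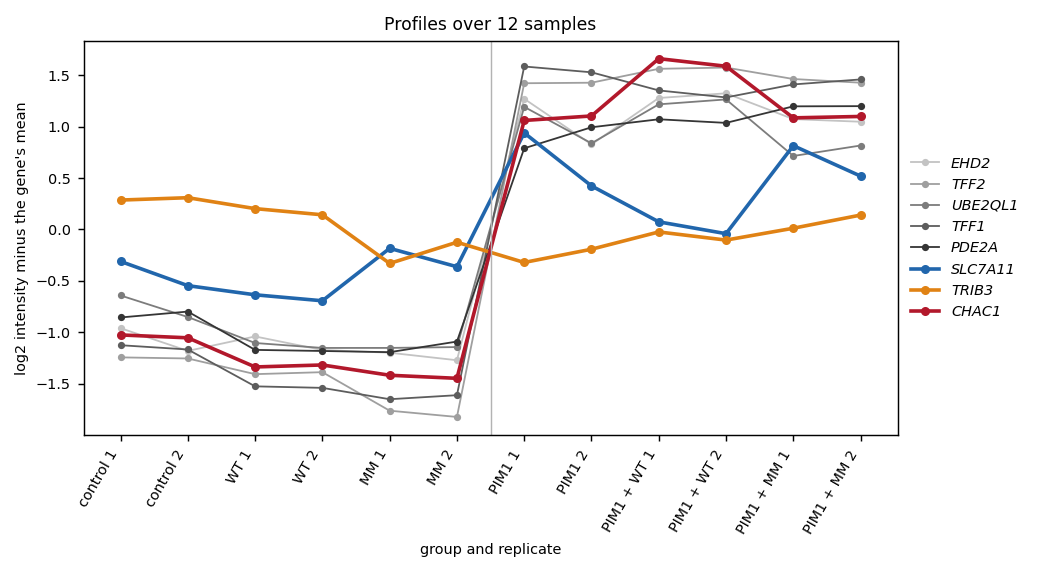
Log2 intensity minus the gene's own mean over 12 samples (vertical axis) in each sample (horizontal axis, group and replicate), for CHAC1 in red, the 5 genes closest to it in grey, SLC7A11 in blue and TRIB3 in orange; the grey line separates samples without and with stable PIM1. The 5 grey genes rise with CHAC1 in all 6 samples with stable PIM1, and SLC7A11 does so by less.

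Of 8 markers of leukocytes, endothelium and fibroblasts, 2 were called higher and 1 lower with WT, and 1 higher and 1 lower with MM NFATC1. PECAM1 differed by 0.89 and 0.82, CD68 by 0.52 and -0.06, and COL1A1 by -0.39 and -0.39. The summed linear intensity of the 8 markers was between 2103 and 2786 in the samples with stable PIM1 and between 2038 and 2250 in those without. CD68, the brightest of them, weighs most in this sum. DCN was well above background in 0 channels, CD3E in 3, COL1A2 in 4 and VWF in 7, and the others in 12. Their part in the result was not tested.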

How the data were processed

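Gene expression was measured in 12 PC-3 samples on 6 two-colour Agilent arrays. Feature Extraction output deposited by the authors holds the raw median intensity of both channels at every spot, with flags for outliers and background. Their deposited log2 table was checked against it and is the log2 median signal after quantile normalisation, within 0.0844. The genome build and annotation behind the arrays are not given in the sources used here. Samples were grouped by their labels and read from the channel of their labelled dye.

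Outlier spots were dropped and log2 spot values averaged per probe, with no background subtraction. A probe was kept (31486 of 34127) if at least 2 of 12 channels exceeded the 90th percentile of 153 negative control spots. Channels were quantile normalised and probes summarised by their median per RefSeq symbol (18855 of 25473 genes had one). Group means were fitted to all 12 samples together with limma (version 3.58.1, R 4.3.3). Two-sided p-values were adjusted over all genes of a comparison after Benjamini and Hochberg. The code was tested on simulated data.

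The genes described, their lists and the comparisons were chosen with earlier results of these data known. From the lists, genes called with a log2 difference of at least 1 were named, at most 3 per list and direction, with PIM1, NFATC1 and the 5 genes closest to CHAC1. Others are named where said, and 1 gene of the lists is not reported here. Alternatives were another background correction, loess, centring on medians, the scanner's processed signal, the table as deposited, 2 other filters, outliers kept, the brightest probe per gene, slide or array as a block, the compared groups only, without the first array, without the low rows, and without each sample.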

Additional observations from a re-analysis of the deposited data

Results flagged for a closer look

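CHAC1 was the 1 member whose stable PIM1 difference was called as different between the forms of NFATC1 in the fit without blocks. With the array as a block TRIB3, PSAT1 and ATF4 were called too, in the opposite direction. The CHAC1 difference of 2.95 with WT exceeded that of 2.52 with MM NFATC1 by 0.43 (adjusted p = 0.0265 by limma's test of the interaction), with 0.49 on slide 1 and 0.36 on slide 2. The value is the mean of 0.86 from probe A_33_P3376965 and -0.01 from probe A_33_P3376971, so that only the dimmer probe showed it. The adjusted p was between 0.0673 and 0.149 without any one of the WT, MM and PIM1 + WT samples or without PIM1 + MM replicate 2. Why the probes differ was not tested.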

How the results depend on the processing

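Stable PIM1 differences of CHAC1 kept their direction and call under all alternatives run. Median centring, which moved the median of all genes by 0.14 with WT, 0.05 with MM NFATC1 and -0.11 between PIM1 + WT and PIM1 + MM cells, left 1 member called with WT, 1 with MM NFATC1, 1 in the mean of both, and 0 in PIM1 + WT minus PIM1 + MM, in PIM1 + MM minus PIM1 and in the interaction. It turned ATF4 to -0.05 and ASNS to -0.13 with WT NFATC1, gave CHAC1 a PIM1 + WT minus PIM1 + MM difference of 0.802 and 0.373 in the interaction, which were not called, and called 489 genes with WT and 107 with MM NFATC1 in place of 6988 and 4948. Of its calls 34.6% with WT NFATC1 (48.8% in the reported setting) and 95.2% between PIM1 + WT and PIM1 + MM cells (53.0%) were higher, and loess gave 41.5% with MM NFATC1 (51.6%) and 82.3% between PIM1 + WT and PIM1 + MM cells. Loess called 2 members in PIM1 + WT minus PIM1 + MM and 0 in PIM1 + MM minus PIM1. A fit of the compared groups only called 9 members with WT NFATC1, 2 in PIM1 + WT minus PIM1 + MM and 0 in PIM1 + MM minus PIM1.

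The brightest probe per gene gave CHAC1 a PIM1 + WT minus PIM1 + MM difference of 0.033 (adjusted p = 0.83) and -0.01 in the interaction, where 0 members were then called, gave ATF3 -0.18 with WT and -0.92 with MM NFATC1, and called 4 members in PIM1 + MM minus PIM1. Without the low rows ATF3 was at -0.032 with MM NFATC1. In PIM1 + MM minus PIM1 cells the CHAC1 difference of 0.01 turned to -0.004 under loess, in the deposited values and without the low rows, to -0.081 with the processed signal and to -0.011 without the first array, which left 1 member called. The filter in all 12 channels called 4 members there and 1 in WT minus MM, as did the array as a random block in the latter. In the interaction 0 members were called after normexp (CHAC1 0.42, adjusted p = 0.0528), 2 with the processed signal, with the filter in all channels and with the slide as replicate block, and 4 with the array as random or fixed block. The replicate number is shared with the slide, and samples of different arrays on a slide deviated with correlations of 0.05 to 0.17, but those of 1 array with 0.83 (control and PIM1), 0.50 (WT and MM) and 0.34 (PIM1 + WT and PIM1 + MM). The array thus pairs samples, which the reported fit leaves out, and its consensus correlation was 0.416. Beside the interaction and ATF4 with WT NFATC1 (adjusted p = 0.0392), the slide block moved no count of called members by over 1.5 times.

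With single samples left out, 4 to 5 members were called with WT and 6 to 7 with MM NFATC1, 1 to 3 in PIM1 + WT minus PIM1 + MM, 1 to 2 in PIM1 + MM minus PIM1 and 0 to 3 in the interaction, where CHAC1 lay between 0.39 and 0.46. ASNS with MM NFATC1 lay between -0.11 and 0.57, and CHAC1 in PIM1 + MM minus PIM1 between -0.011 and 0.032. A group left with 1 sample was assumed to vary like the others. For results that changed, the cause was not tested. The SESN2 spot was well above background in 11 of 12 channels. Without swapped dyes, dye and group cannot be told apart in any comparison of Cy3 with Cy5. Comparisons within a dye lie between arrays, so that array and group cannot be told apart in them.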
